A study of Mus musculus with 16 samples.

Results

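The comparison described here is that of Tsc1-deficient naive CD4 T cells with wild-type naive CD4 T cells, both sorted from mice on a C57BL/6 background and both cultured in Click medium for 4 h on plate-bound aCD3-CD28. These antibodies bind CD3, the signalling part of the T cell receptor, and the costimulatory receptor CD28, and they stand in for antigen. Each genotype had 3 arrays, so 6 of the 16 arrays of the series enter the comparison. The other 10 hold unstimulated (0 h) CD4 cells of both genotypes with 3 arrays each and unstimulated CD8 cells of both genotypes with 2 arrays each. Total RNA was hybridised to single-colour Affymetrix expression arrays, and a value is a log2 signal, on which a step of 1 is a 2-fold difference. For each of 17097 genes, the probe set that names only that gene and has the highest mean over the 16 arrays was taken. A change is the mean of the deficient arrays minus the mean of the wild-type arrays, with limma's standard error after ±. That error draws on the spread within all groups of the 16 arrays. Where the 3 deficient arrays lie far apart, it can be smaller than the 6 arrays compared would give alone. A gene is called where limma's p-value, adjusted over all 17097 genes, is under 0.05. The median signal of the table was 3.36, and a signal under it may be close to background. Probe sets of families of near-identical genes, such as Trav6-3, Ly6c1, Oas1g, Serpinb6b and Ifit1bl1, can also read RNA of relatives. The genotype entries and titles of the labels name Tsc1, while 1 sentence of the treatment text names another deficient strain, and the entries and titles were followed. The labels give neither the Cre driver nor the age or sex of the mice. They leave unsaid whether arrays of a group stand for different mice, and the p-values then describe the spread among the arrays, which may be technical.

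Tsc1 is the partner of Tsc2 in the TSC complex, which switches off the small GTPase Rheb. Active Rheb turns on the kinase complex mTORC1 at the lysosome surface, where Rag GTPases hold it when amino acids are plentiful. mTORC1 promotes protein, lipid and nucleotide synthesis and glycolysis, and it keeps the factors that drive lysosome genes out of the nucleus. In T cells, Tsc1 is known for holding naive cells in a quiescent state, and mTORC1 for the growth and differentiation that follow engagement of the T cell receptor.

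Tsc1 itself was at 6.22, 6.46 and 6.501 on the deficient arrays, against 7.54, 7.37 and 7.45 on the wild-type arrays. All 3 deficient arrays lay below all 3 wild-type arrays, a change of -1.06 ± 0.10 (adjusted p = 4.63e-06), or 2.09-fold more signal in wild-type cells. Its 2 other, dimmer probe sets did not pass the test (-0.21 and 0.03), and the labels do not say where the deletion lies. The CD4 T cell markers were present. Cd4 itself was at 8.08, 7.36 and 7.28 in deficient cells, against 7.25, 7.50 and 7.36 in wild-type cells, and Cd3e at 8.92, 8.39 and 8.30 in deficient cells, against 8.66, 8.85 and 8.73 in wild-type cells. Of 7 such markers 0 rose and 3 fell, namely Cd3g, Cd5 and Cd28, and their summed linear signal was 6545 to 7265 in deficient cells and 8915 to 10560 in wild-type cells. Deficient replicate 1 stood apart by the control probe sets for the 2 ends of a transcript. Its 3' minus 5' difference was 0.96 for Gapdh and 1.19 for actin, against 0.02 to 0.27 and 0.504 to 0.76 on the other 5 arrays. Without this array, 5 of the 7 CD4 T cell markers fell, with a median change of -0.40 in place of -0.25. Deficient arrays also correlated less with each other (lowest r 0.9919) than wild-type arrays did (lowest r 0.9966).

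Of 17097 genes, 1616 (9.45%) were called, 956 higher (5.59%) and 660 lower (3.86%) in deficient cells. The median change of all genes was -0.00, and the median absolute change of the called genes was 0.56, so most called differences were under 2-fold. At least 2-fold changes numbered 195, of which 153 were higher and 42 lower. Arrays of the genotypes did not overlap for 4087 genes (23.9%), which included 1585 of the 1616 called ones. Absence of overlap therefore adds little to a call. Without deficient replicate 1 there were 1467 calls (8.58%), 891 higher (5.21%) and 576 lower (3.37%), 1150 of them among the 1616 and 0 with the opposite sign. Without wild-type replicate 2 the count fell to 1062, and a fit of the 6 arrays alone called 823. Where a call is said below to rest on or be decided by single arrays, it was lost when any 1 of the arrays named was left out. A smaller group also gives the test less power, so such a loss marks a borderline call and need not mean that the array was unusual.

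The widest gap was that of Abcb1a, the efflux pump P-glycoprotein. It was at 8.29, 8.32 and 7.71 in deficient cells, against 4.59, 4.32 and 4.35 in wild-type cells, 12.9-fold higher (3.69 ± 0.20, adjusted p = 2.46e-08). Each deficient array exceeded each wild-type array by more than 3 on the log2 scale. Next, after the neutrophil genes S100a8 and Ngp given further on, was Rragd, one of the Rag GTPases that bring mTORC1 to the lysosome, at 6.63, 6.84 and 6.73 in deficient cells, against 3.92, 3.72 and 3.58 in wild-type cells and 7.97-fold higher (2.99 ± 0.21, adjusted p = 3.92e-07), although a second, dim probe set of Rragd did not pass (-0.02). The arrays of each genotype were close together for both genes next to the distance between genotypes.

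Several enzymes and receptors of unrelated pathways were among the 20 genes with the largest rise. Acot7, a thioesterase that releases fatty acids from coenzyme A, was at 7.58, 7.11 and 6.88 in deficient cells, against 4.87, 5.30 and 4.45 in wild-type cells. Ptger2, a receptor for prostaglandin E2, was at 6.93, 6.87 and 6.20 in deficient cells, against 4.46, 4.92 and 4.21 in wild-type cells. Serpinb6b, an intracellular protease inhibitor, was at 7.22, 7.43 and 6.9997 in deficient cells, against 5.04, 5.18 and 5.41 in wild-type cells. The changes of these 3 genes were 2.31 ± 0.21, 2.14 ± 0.21 and 2.01 ± 0.13, and arrays that do not overlap were a condition for entering the 20. Glrx, the glutaredoxin that reduces protein disulphides with glutathione, was at 7.20, 7.27 and 7.17 in deficient cells, against 5.28, 5.52 and 5.36 in wild-type cells (1.83 ± 0.10, adjusted p = 2.46e-08), with little spread in either genotype. Plac8 (2.36 ± 0.35), the proprotein convertase Pcsk1 (2.22 ± 0.25) and Cd200r4, a receptor of the CD200R family (1.82 ± 0.18), also rose, and deficient replicate 2 was the highest array for Plac8 and Pcsk1.

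On the low side, Hs3st3b1, an enzyme that modifies heparan sulphate chains, was at 4.82, 5.65 and 5.35 in deficient cells, against 6.89, 7.19 and 6.68 in wild-type cells (-1.65 ± 0.19, adjusted p = 3.54e-05). Nab2, a corepressor that binds EGR transcription factors, was at 5.39, 5.86 and 6.17 in deficient cells, against 7.38, 7.61 and 7.36 in wild-type cells (-1.64 ± 0.18, adjusted p = 2.37e-05). Id3, an inhibitor of E-protein transcription factors, was at 4.43, 5.80 and 5.50 in deficient cells, against 6.71, 7.16 and 6.67 in wild-type cells (-1.60 ± 0.25), with deficient replicate 1 the lowest array, and without it the change was -1.20 (adjusted p = 0.000383). The wild-type arrays were high and close together for all 3 genes. Fbxo32, a ubiquitin ligase subunit and target of FOXO factors, was at 6.29, 5.96 and 6.24 in deficient cells, against 7.88, 7.63 and 7.47 in wild-type cells (-1.497 ± 0.16). Crebrf, a regulator of CREB3 factors (-1.33 ± 0.18), Arhgap29, a GTPase activating protein (-1.29 ± 0.15), Sytl2, an effector of Rab27 in vesicle transport (-1.31 ± 0.21), the protease Ctse (-1.35 ± 0.20) and the proton channel Hvcn1 (-1.26 ± 0.16) were among the 20 largest falls too. Absence of overlap between genotypes was a condition for entering these 20 as well. One of the other probe sets of Crebrf did not pass (-0.86).

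**Figure D1:**
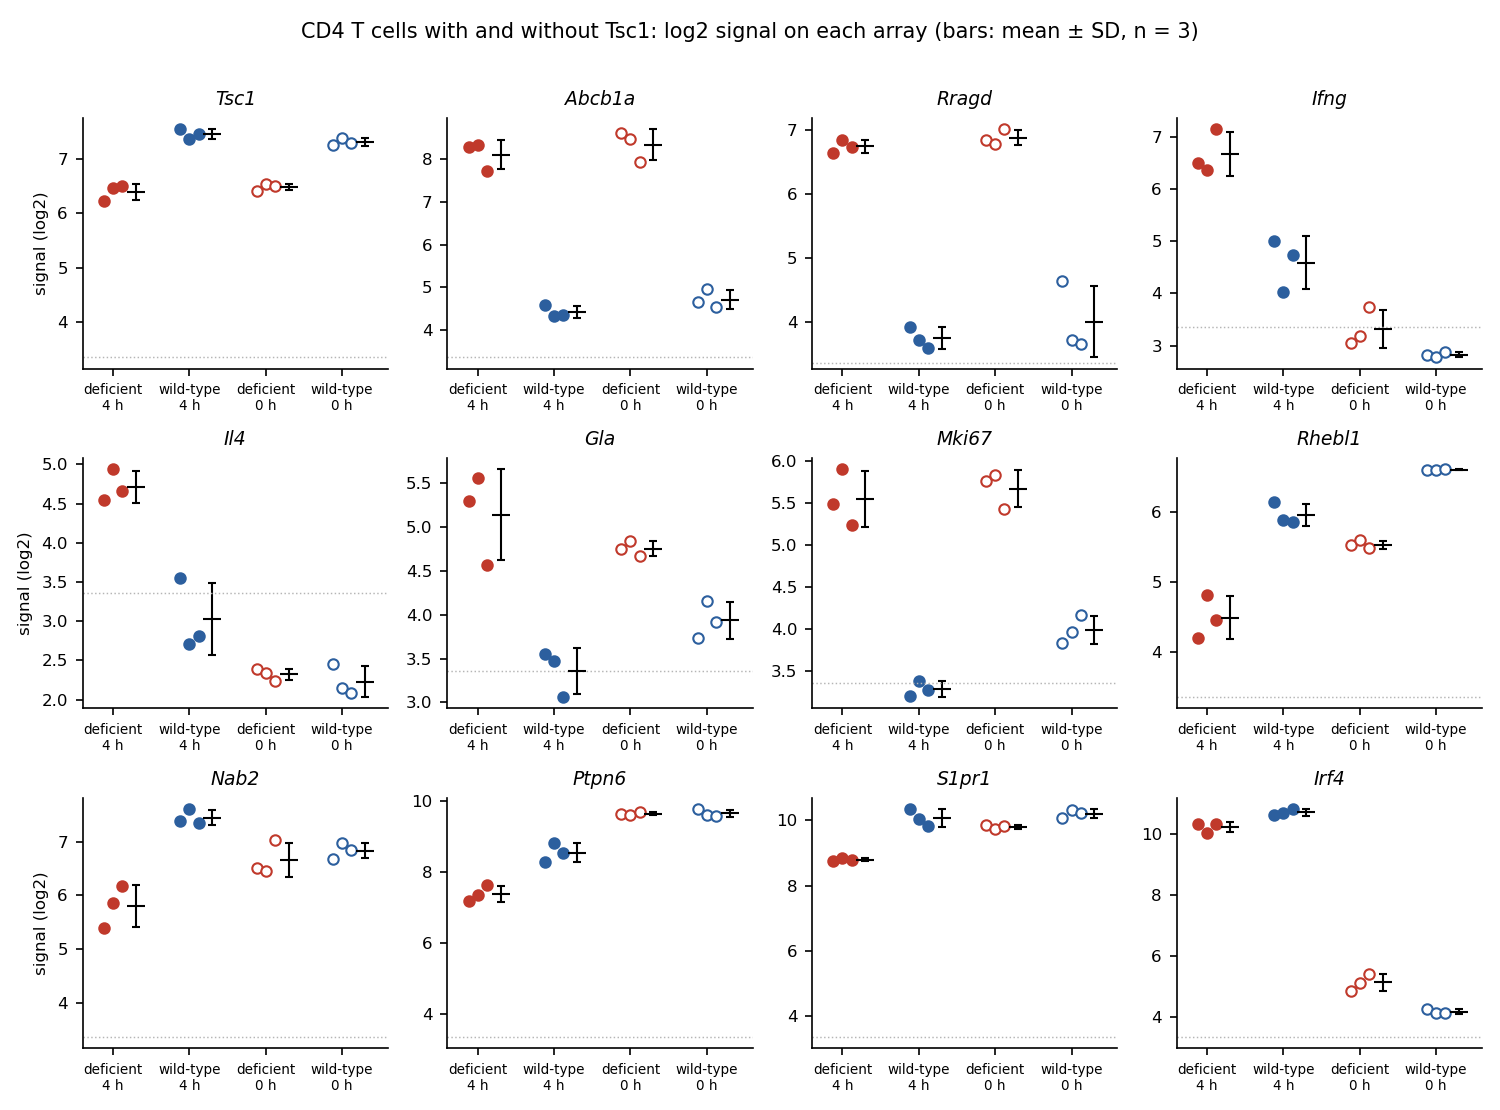
Log2 signal (vertical axis) of 12 genes in the 4 CD4 groups, deficient left of wild-type, with filled points for arrays at 4 h, open points for arrays at 0 h, bars for the mean and SD of 3 arrays and a dotted line at the table median of 3.36. At 4 h the genotypes do not overlap for any of the 12 genes, and Abcb1a and Rragd are about as far apart at 0 h, while Ifng, Il4, Nab2 and Ptpn6 are not.

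Of 27 measured secreted and membrane cytokines, 11 rose and 1 fell, beside 5.59% and 3.86% of all genes, with a median change of 0.21. The other 15 were not called, and 7 of the 27 were under the table median in both genotypes. Ifng, the main cytokine of type 1 helper cells, was at 6.49, 6.35 and 7.14 in deficient cells, against 4.9999, 4.03 and 4.74 in wild-type cells, 4.21-fold higher (2.07 ± 0.23, adjusted p = 2.89e-05). Il4, the main cytokine of type 2 helper cells, was at 4.54, 4.94 and 4.66 in deficient cells, against 3.55, 2.71 and 2.81 in wild-type cells (1.69 ± 0.18, adjusted p = 2.51e-05). Both sets of wild-type arrays ended below the lowest deficient array, and Il4 was under the table median on 2 of 3 wild-type arrays.

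Csf2, which encodes the growth factor GM-CSF, was at 3.63, 4.53 and 3.78 in deficient cells, against 2.75, 2.85 and 2.52 in wild-type cells (1.27 ± 0.17, adjusted p = 0.000177). Il5, a growth factor for eosinophils, was at 3.13, 3.52 and 3.50 in deficient cells, against 2.61, 2.44 and 2.39 in wild-type cells (0.90 ± 0.12, adjusted p = 0.000111). Il3, a growth factor for mast cells and basophils, was at 3.45, 2.93 and 3.38 in deficient cells, against 2.24, 2.78 and 2.45 in wild-type cells (0.76 ± 0.14, adjusted p = 0.00255). Wild-type arrays of these 3 genes all lay under the table median. Among membrane-bound members, Tnfsf10, the death ligand TRAIL, was at 4.77, 4.63 and 4.87 in deficient cells, against 3.07, 3.26 and 3.72 in wild-type cells (1.40 ± 0.17). Tnfsf8, the ligand of CD30, was at 8.28, 7.75 and 7.34 in deficient cells, against 6.89, 6.52 and 6.90 in wild-type cells (1.02 ± 0.19). The member that fell was Ltb, a membrane lymphotoxin, at 10.08, 10.65 and 10.76 in deficient cells, against 10.90, 10.99 and 10.94 in wild-type cells (-0.45 ± 0.13, adjusted p = 0.0426). It was named after its values were seen, and single arrays decided the call of Ltb (deficient replicate 1 and wild-type replicates 1, 2 and 3, adjusted p up to 0.13). The dimmest probe set of Tnfsf10 did not pass (0.296).

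Other cytokines that T cells make within hours did not pass the test. Il2, the T cell growth factor, was at 6.71, 6.87 and 6.82 in deficient cells, against 6.51, 7.09 and 7.78 in wild-type cells (-0.33 ± 0.21, adjusted p = 0.406), and the wild-type arrays were spread widely around the deficient ones. Tnf was at 6.23, 5.94 and 5.71 in deficient cells, against 6.19, 6.27 and 6.36 in wild-type cells (-0.31 ± 0.14, adjusted p = 0.21). Il21 (0.35 ± 0.14), Cd40lg, the ligand that activates B cells (0.21 ± 0.15), Il13 (0.15 ± 0.11) and Lta (-0.06 ± 0.14) had overlapping arrays as well.

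Of 14 chemokines, 6 rose and 1 fell, beside 5.59% and 3.86% of all genes. Ccl1, a ligand of CCR8, was at 4.30, 4.32 and 5.03 in deficient cells, against 3.26, 3.52 and 3.80 in wild-type cells (1.02 ± 0.18, adjusted p = 0.0018). Ccl5 was at 8.59, 8.22 and 8.31 in deficient cells, against 7.61, 7.30 and 7.47 in wild-type cells (0.91 ± 0.20, adjusted p = 0.00681). Ccl3, like Ccl5 an inflammatory chemokine, was at 6.75, 6.99 and 7.37 in deficient cells, against 6.47, 5.98 and 6.08 in wild-type cells (0.86 ± 0.20, adjusted p = 0.00978). The interferon-induced chemokines Cxcl10 and Cxcl9, ligands of CXCR3, varied widely between arrays. Cxcl10 was at 9.03, 9.71 and 10.54 in deficient cells, against 8.19, 7.67 and 9.04 in wild-type cells (1.46 ± 0.37). Cxcl9 was at 4.19, 3.82 and 5.76 in deficient cells, against 3.08, 2.97 and 3.82 in wild-type cells (1.30 ± 0.36). For both genes replicate 3 was the highest array in each genotype. Xcl1, a chemokine that attracts cross-presenting dendritic cells, was lower, at 7.02, 6.55 and 6.71 in deficient cells, against 8.09, 7.57 and 7.0002 in wild-type cells (-0.79 ± 0.21), with overlapping arrays. Calls were lost on leaving out single arrays for Cxcl10 (deficient replicate 3 and wild-type replicates 1 and 2, adjusted p up to 0.103), Cxcl9 (deficient replicate 3 and wild-type replicates 1 and 2, adjusted p up to 0.128), Ccl3 (wild-type replicate 2, adjusted p = 0.0537) and Xcl1 (deficient replicates 2 and 3 and wild-type replicates 1 and 2, adjusted p up to 0.134). With deficient replicate 3 or wild-type replicate 2 left out, 3 chemokines rose.

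Cytokine receptor chains moved in both directions. Of 26 measured, 6 rose and 4 fell, beside 5.59% and 3.86% of all genes. Tnfrsf1b, the second receptor for TNF, was at 8.40, 7.73 and 7.40 in deficient cells, against 6.81, 7.13 and 7.004 in wild-type cells (0.86 ± 0.18, adjusted p = 0.0054). Il18rap, the accessory chain of the interleukin 18 receptor, was at 4.34, 4.44 and 4.64 in deficient cells, against 3.61, 3.75 and 3.65 in wild-type cells (0.80 ± 0.16). Il18r1, its binding chain, was at 6.27, 6.37 and 6.31 in deficient cells, against 6.81, 6.79 and 6.99 in wild-type cells (-0.55 ± 0.09), so the chains of this receptor moved in opposite directions. A second, dim probe set of Il18rap did not pass (0.33). Il10ra, a chain of the interleukin 10 receptor, rose by 0.67 ± 0.12. Il6st, the gp130 chain shared by the interleukin 6 family, was at 7.20, 7.11 and 7.21 in deficient cells, against 7.88, 7.76 and 7.76 in wild-type cells (-0.62 ± 0.09, adjusted p = 0.00023). The high-affinity interleukin 2 receptor chain Il2ra was called as higher, at 5.15, 5.03 and 5.83 in deficient cells, against 4.46, 4.81 and 4.67 in wild-type cells (0.69 ± 0.20), and Tgfbr2, a receptor for TGF-beta, as lower (-0.43 ± 0.12). Those 2 calls rested on single arrays, namely for Il2ra (deficient replicate 3 and wild-type replicates 1, 2 and 3, adjusted p up to 0.153) and for Tgfbr2 (deficient replicate 1 and wild-type replicates 1, 2 and 3, adjusted p up to 0.15). The list held 3 to 7 higher and 2 to 4 lower genes as each array was left out, with 3 higher without deficient replicate 3 or wild-type replicate 2 and 2 lower without wild-type replicate 1 or 2.

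Cytokine signals induce through STAT factors a set of genes that then dampen those signals. Of 11 such feedback genes, 4 rose, 0 fell and 7 were not called, while 5.59% of all genes rose and 3.86% fell. Cish was at 8.26, 8.09 and 7.72 in deficient cells, against 6.93, 7.02 and 7.20 in wild-type cells (0.98 ± 0.13, adjusted p = 9.8e-05). Socs3 was at 7.87, 7.95 and 7.95 in deficient cells, against 7.03, 6.33 and 6.75 in wild-type cells (1.22 ± 0.28). Socs2 was at 5.44, 5.74 and 5.24 in deficient cells, against 4.33, 4.48 and 4.84 in wild-type cells (0.92 ± 0.19). Socs1 was at 7.23, 7.24 and 7.71 in deficient cells, against 6.45, 6.24 and 7.11 in wild-type cells (0.80 ± 0.20). The deficient arrays of Socs3 were nearly equal, and its wild-type arrays were not. The kinase gene Pim1, a STAT5 target, was at 9.54, 9.23 and 8.46 in deficient cells, against 8.60, 8.68 and 8.62 in wild-type cells, with overlap (0.44 ± 0.25, adjusted p = 0.35). Single arrays decided the calls of Socs3 (wild-type replicate 2, adjusted p = 0.061) and Socs1 (deficient replicate 3 and wild-type replicates 1 and 2, adjusted p up to 0.0918), and without wild-type replicate 2 only Cish and Socs2 remained called.

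Of 39 measured signalling components of the T cell receptor pathway, 10 fell (3.86% of all genes did) and 2 rose (5.59% of all genes), and the median change was -0.21, against -0.00 over all genes. Ptpn6, the phosphatase SHP-1 that restrains receptor signalling, was at 7.19, 7.34 and 7.62 in deficient cells, against 8.28, 8.82 and 8.53 in wild-type cells (-1.16 ± 0.13, adjusted p = 3.06e-05). Cd3g, a chain of the receptor complex, was at 9.56, 9.49 and 9.60 in deficient cells, against 10.33, 10.52 and 10.29 in wild-type cells (-0.83 ± 0.08, adjusted p = 1.37e-05). Nfatc1, a calcium-activated transcription factor, was at 8.28, 8.25 and 8.63 in deficient cells, against 9.19, 9.31 and 9.14 in wild-type cells (-0.83 ± 0.11, adjusted p = 0.000172). Fyn, a Src-family kinase, was at 10.14, 10.18 and 10.20 in deficient cells, against 10.72, 10.95 and 10.89 in wild-type cells (-0.68 ± 0.09, adjusted p = 8.13e-05). None of the 4 had overlapping arrays, although 3 of the 4 other, dimmer probe sets of Nfatc1 did not pass (-0.37, -0.16 and -0.36).

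The adaptor Pag1, which recruits the inhibitory kinase Csk, fell (-0.75 ± 0.16), as did Dgka, a lipid kinase that ends diacylglycerol signals (-0.40 ± 0.10), and the adaptor Lat (-0.49 ± 0.13). The genes that fell thus held both activators and inhibitors of the pathway. Ubash3b, the phosphatase STS-1, rose, at 6.65, 6.5003 and 5.62 in deficient cells, against 5.38, 5.56 and 5.06 in wild-type cells (0.92 ± 0.20). Themis, a receptor-proximal adaptor named after its values were seen, was the other gene that rose, at 7.43, 7.19 and 7.52 in deficient cells, against 6.87, 6.82 and 6.86 in wild-type cells (0.53 ± 0.10). Zap70, the kinase recruited to the receptor, was at 8.78, 8.49 and 8.48 in deficient cells, against 8.80, 8.76 and 8.65 in wild-type cells (-0.15 ± 0.10, adjusted p = 0.41), and the ubiquitin ligase Cblb had a change of -0.51 ± 0.18 (adjusted p = 0.0905). Single arrays decided the calls of Dgka (deficient replicate 2 and wild-type replicate 1, adjusted p up to 0.069) and Lat (deficient replicate 1 and wild-type replicates 2 and 3, adjusted p up to 0.11), while the list held 7 to 12 lower and 2 to 3 higher genes as each array was left out.

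Among 25 costimulatory and activation surface molecules, 4 rose and 4 fell, beside 5.59% and 3.86% of all genes. The genes that fell encode receptors present on resting T cells. Cd27, a TNF-family costimulatory receptor, was at 8.22, 8.26 and 8.11 in deficient cells, against 8.95, 9.24 and 8.96 in wild-type cells (-0.86 ± 0.11, adjusted p = 7.82e-05). Cd5, an inhibitory receptor, was at 9.72, 9.73 and 9.72 in deficient cells, against 10.22, 10.72 and 10.32 in wild-type cells (-0.70 ± 0.12). Cd6, its relative, was at 8.92, 8.69 and 8.64 in deficient cells, against 9.34, 9.55 and 9.32 in wild-type cells (-0.65 ± 0.12). Cd28 was at 10.58, 10.71 and 10.87 in deficient cells, against 11.17, 11.55 and 11.26 in wild-type cells (-0.61 ± 0.12). None of the 4 overlapped between genotypes. Slc3a2, the heavy chain of several amino acid transporters known as CD98, was at 9.49, 9.34 and 9.10 in deficient cells, against 8.76, 8.85 and 8.65 in wild-type cells (0.56 ± 0.11). Cd96, a receptor of the nectin-binding family, was at 7.39, 6.86 and 7.003 in deficient cells, against 6.62, 6.49 and 6.53 in wild-type cells (0.54 ± 0.12). Pdcd1, the inhibitory receptor PD-1, was at 6.10, 5.82 and 4.96 in deficient cells, against 4.87, 4.59 and 4.50 in wild-type cells (0.97 ± 0.24), and Cd200 rose by 0.51 ± 0.14. Cd69, an early activation marker, was at 11.34, 11.41 and 11.30 in deficient cells, against 11.20, 11.56 and 11.60 in wild-type cells (-0.10 ± 0.20, adjusted p = 0.846), and neither Ctla4 (0.02 ± 0.33) nor Icos (-0.32 ± 0.12) passed. Calls were lost on leaving out single arrays for Pdcd1 (deficient replicates 1 and 2 and wild-type replicates 2 and 3, adjusted p up to 0.085) and Cd200 (deficient replicates 1 and 2 and wild-type replicates 1, 2 and 3, adjusted p up to 0.127), so that 2 molecules rose without deficient replicate 1 or 2 or wild-type replicate 2 or 3.

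Transcription factors induced by activation split into 7 that rose and 6 that fell, of 37 measured, beside 5.59% and 3.86% of all genes. Eomes, a T-box factor of cytotoxic and memory cells, was at 7.47, 7.61 and 5.78 in deficient cells, against 5.34, 5.15 and 5.08 in wild-type cells (1.76 ± 0.36, adjusted p = 0.00452), with deficient replicate 3 well below the other 2. Bhlhe40, a repressor that supports cytokine production, was at 7.55, 8.38 and 7.45 in deficient cells, against 6.05, 6.36 and 6.24 in wild-type cells (1.58 ± 0.20, adjusted p = 9.8e-05). Ier3, an early gene that modulates survival, was at 5.76, 6.27 and 4.69 in deficient cells, against 3.60, 4.04 and 4.24 in wild-type cells (1.61 ± 0.33). Nfil3, a bZIP factor, was at 5.96, 6.13 and 5.31 in deficient cells, against 4.91, 5.16 and 4.38 in wild-type cells (0.98 ± 0.22). Tbx21, the type 1 helper factor T-bet, was called as higher (0.84 ± 0.24), and Gata3, the type 2 factor, was not called (0.06 ± 0.18, adjusted p = 0.915). Leaving out 1 array removed the calls of Tbx21 (deficient replicates 1 and 3 and wild-type replicates 2 and 3, adjusted p up to 0.157) and Nfil3 (wild-type replicate 3, adjusted p = 0.0508).

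Egr1, an immediate early factor, was at 10.60, 10.02 and 10.14 in deficient cells, against 11.01, 11.25 and 11.13 in wild-type cells (-0.87 ± 0.14, adjusted p = 0.000576), and its corepressor Nab2 is given above. Its relatives Egr2, at 8.99, 8.39 and 8.20 in deficient cells, against 8.47, 8.59 and 8.60 in wild-type cells, and Egr3, at 4.13, 3.68 and 3.73 in deficient cells, against 3.94, 3.96 and 3.91 in wild-type cells, overlapped and were not called. Irf4, which grades effector programmes by the strength of the receptor signal, was at 10.32, 10.03 and 10.33 in deficient cells, against 10.60, 10.68 and 10.81 in wild-type cells (-0.47 ± 0.14, adjusted p = 0.0382), and Id2, like Id3 an E-protein inhibitor, was called as lower (-0.58 ± 0.18). A second, dim probe set of Irf4 did not pass (0.03). Nr4a1 (-0.39 ± 0.43), Nr4a3 (0.08 ± 0.21) and Junb (0.11 ± 0.31), which receptor signals induce, were not called. Single arrays decided the calls of Irf4 (deficient replicate 2 and wild-type replicates 1, 2 and 3, adjusted p up to 0.147) and Id2 (deficient replicate 1 and wild-type replicates 1, 2 and 3, adjusted p up to 0.145). The list of 37 held 3 to 6 higher and 3 to 5 lower genes as each array was left out, with 3 and 3 without wild-type replicate 3 and 3 lower without wild-type replicate 2.

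Feedback inhibitors of the MAP kinase pathway gave 4 lower and 1 higher gene of 17, beside 3.86% lower and 5.59% higher over all genes. Spred2 was at 6.55, 7.26 and 7.41 in deficient cells, against 8.37, 8.71 and 8.54 in wild-type cells (-1.47 ± 0.19, adjusted p = 0.000116). Spred1 was at 4.46, 4.37 and 4.35 in deficient cells, against 5.34, 5.42 and 5.48 in wild-type cells (-1.02 ± 0.09, adjusted p = 5.74e-06). Both are membrane proteins that block Ras signalling, and both were lower on every deficient array. Dusp2, a phosphatase of ERK and p38, was at 8.24, 8.64 and 8.29 in deficient cells, against 9.06, 9.23 and 8.89 in wild-type cells (-0.67 ± 0.14), and Rasal3, a Ras GTPase activating protein of lymphocytes, fell (-0.46 ± 0.09). Dusp10, a phosphatase of JNK and p38, rose, at 9.27, 9.55 and 8.60 in deficient cells, against 8.41, 8.36 and 8.20 in wild-type cells (0.82 ± 0.18). The same 4 lower and 1 higher counts were found without any 1 of the 6 arrays. Of 17 NF-kB subunits and regulators, 2 inhibitors rose, Nfkbia (0.56 ± 0.17) and Nfkbie (0.44 ± 0.11), and 0 fell, while Rel (0.36 ± 0.21), Tnfaip3 (-0.03 ± 0.52) and Nfkbid (-0.14 ± 0.19) were not called. Both calls rested on single arrays, for Nfkbia (deficient replicates 1 and 2 and wild-type replicates 1, 2 and 3, adjusted p up to 0.191) and Nfkbie (deficient replicate 2 and wild-type replicate 1, adjusted p up to 0.0693), and 3 other members were called as lower without deficient replicate 3.

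Of 26 measured factors of the naive, quiescent state, 5 fell (3.86% of all genes did) and 1 rose (5.59% of all genes), and the median change was -0.15. Lef1, a factor of naive and memory precursor cells, was at 8.91, 8.92 and 8.68 in deficient cells, against 9.92, 9.60 and 9.49 in wild-type cells (-0.83 ± 0.12, adjusted p = 0.000373). Bach2, a repressor of effector genes, was at 10.46, 10.44 and 10.65 in deficient cells, against 11.13, 11.16 and 11.15 in wild-type cells (-0.63 ± 0.13, adjusted p = 0.00543). Klf2, which maintains quiescence and drives S1pr1, was at 11.13, 11.12 and 11.19 in deficient cells, against 11.75, 11.50 and 11.51 in wild-type cells (-0.44 ± 0.11). The wild-type arrays were higher without overlap for these 3 genes. Tob1, an antiproliferative gene, went the other way, at 10.71, 10.32 and 10.32 in deficient cells, against 9.75, 9.59 and 9.69 in wild-type cells (0.78 ± 0.15). Ets1 (-0.39 ± 0.10) and Klf3 (-0.45 ± 0.13) were called as lower, and the dimmest probe set of Bach2 did not pass (-0.43). None of the other probe sets of Klf3 passed (-0.41 to -0.10). Leaving out 1 array also removed the calls of Klf2 (wild-type replicate 1, adjusted p = 0.0809), Ets1 (deficient replicate 1 and wild-type replicates 1 and 3, adjusted p up to 0.111) and Klf3 (deficient replicates 1 and 3 and wild-type replicates 1, 2 and 3, adjusted p up to 0.178), and the list held 2 lower genes without wild-type replicate 1 and 3 without deficient replicate 1 or wild-type replicate 3. Among 8 GIMAP genes, GTPases needed for lymphocyte survival, Gimap8 was at 10.63, 10.45 and 10.81 in deficient cells, against 11.32, 11.24 and 11.32 in wild-type cells (-0.67 ± 0.10), and Gimap1 (-0.54 ± 0.10) and Gimap5 (-0.50 ± 0.11) fell as well, while Gimap7 rose (0.52 ± 0.10). The call of Gimap5 (deficient replicate 2, adjusted p = 0.0506) rested on 1 array, and 5 members fell without deficient replicate 1.

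Homing receptors and integrins gave 7 higher and 2 lower genes of 20, beside 5.59% and 3.86% of all genes. S1pr1, the receptor by which T cells sense sphingosine 1-phosphate and exit lymphoid tissue, was at 8.75, 8.85 and 8.77 in deficient cells, against 10.35, 10.05 and 9.81 in wild-type cells (-1.28 ± 0.14, adjusted p = 2.32e-05). Ccr9, a chemokine receptor for homing to the gut, was at 5.27, 6.32 and 5.69 in deficient cells, against 3.80, 3.67 and 3.71 in wild-type cells (2.04 ± 0.19, adjusted p = 6.11e-06), and 2 of its other 3 probe sets did not pass (0.16 and -0.05). Cxcr3, the receptor of Cxcl9 and Cxcl10, was at 5.57, 5.76 and 5.65 in deficient cells, against 4.23, 4.34 and 4.59 in wild-type cells (1.28 ± 0.26). Itgb7, an integrin chain of gut homing, was at 8.46, 7.70 and 7.81 in deficient cells, against 7.15, 7.04 and 7.02 in wild-type cells (0.92 ± 0.14). None of these overlapped between genotypes. Ccr2, a receptor for monocyte chemokines, rose by 0.78 ± 0.16, and Itgav, which with beta chains binds vitronectin, by 0.70 ± 0.10. None of the other, dim probe sets of Itgav passed (-0.25 to 0.39), and those of Ccr2 at 0.28 and 0.37 did not pass either. Itga4, the integrin partner of Itgb7, was lower (-0.41 ± 0.10), and Cd44, the hyaluronan receptor, did not differ in this test (-0.02 ± 0.12, adjusted p = 0.957). The call of Itga4 (deficient replicates 1 and 2 and wild-type replicates 1 and 2, adjusted p up to 0.0615) rested on single arrays, and its 4 other probe sets did not pass (-0.27 to 0.098).

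Of 24 effector and cytotoxic genes, 7 rose and 0 fell, beside 5.59% and 3.86% of all genes, with a median change of 0.33. Ly6c1, a surface antigen of memory and effector cells, was at 10.95, 10.85 and 11.62 in deficient cells, against 9.49, 9.46 and 9.71 in wild-type cells (1.59 ± 0.16, adjusted p = 1.24e-05). Lgals1, the secreted lectin galectin 1, was at 8.04, 8.19 and 7.81 in deficient cells, against 7.03, 7.13 and 7.16 in wild-type cells (0.91 ± 0.11, adjusted p = 5.02e-05). S100a6 was at 4.80, 5.31 and 5.35 in deficient cells, against 3.82, 3.24 and 3.55 in wild-type cells (1.62 ± 0.24), and S100a4, like it a calcium-binding protein, rose by 1.07 ± 0.16. Gzma, the protease granzyme A, was at 4.19, 5.74 and 4.57 in deficient cells, against 3.07, 2.98 and 3.62 in wild-type cells (1.61 ± 0.31), and the changes of Gzmb (0.78 ± 0.27, adjusted p = 0.0902) and perforin, Prf1 (-0.53 ± 0.23, adjusted p = 0.181), did not pass. With deficient replicate 2 or 3 left out, 5 genes of the list rose.

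**Figure D2:**
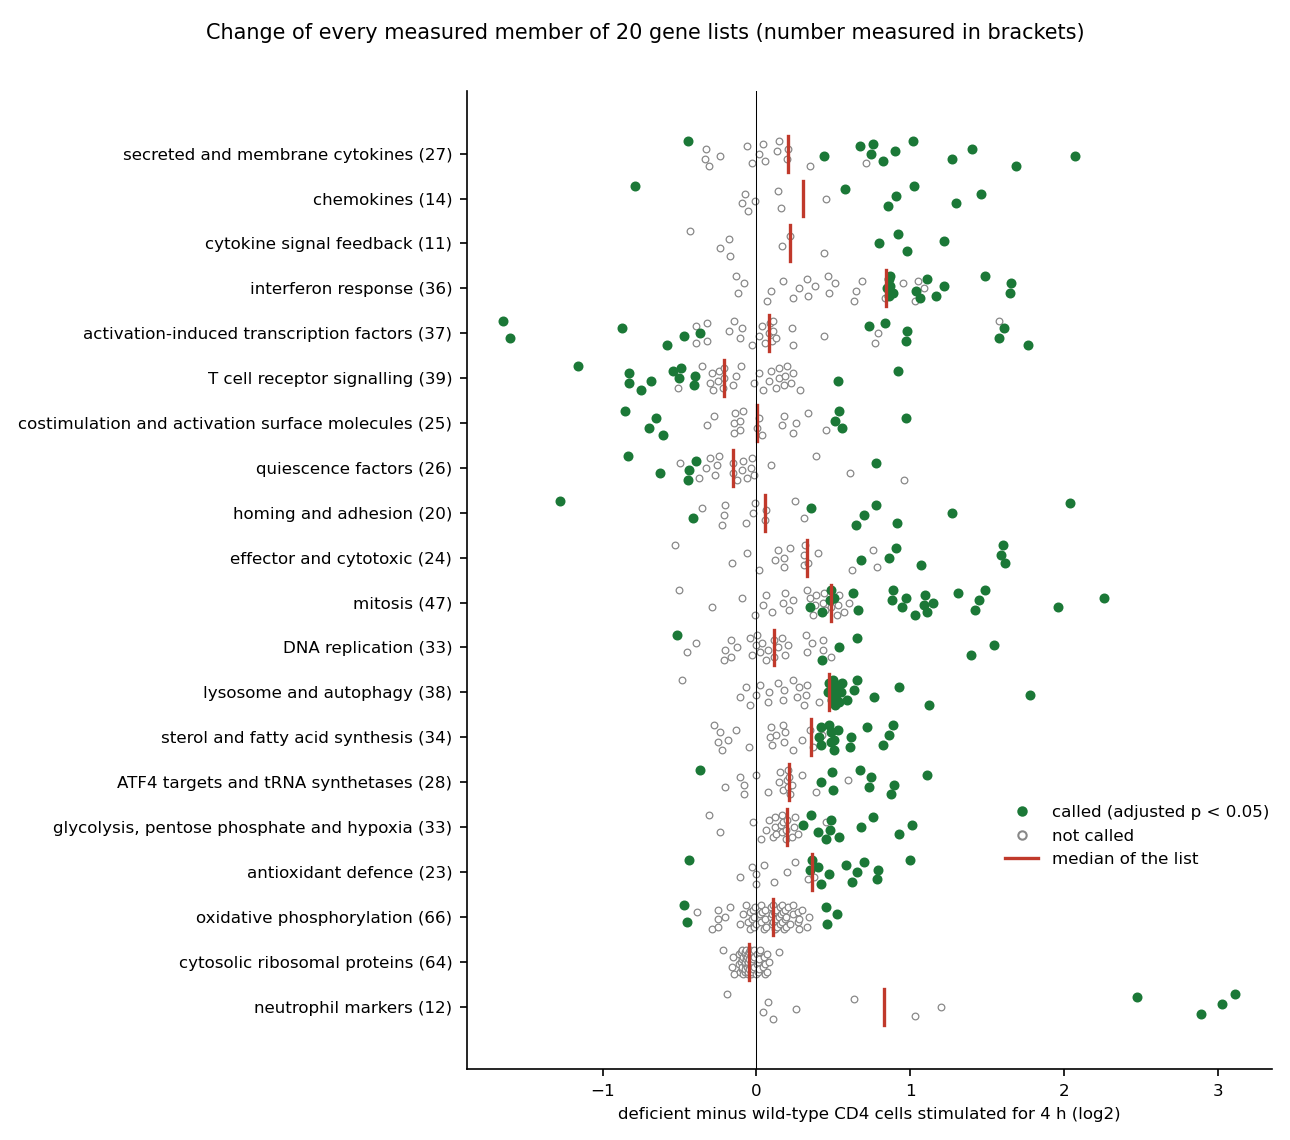
Change in stimulated cells, deficient minus wild-type (horizontal axis, log2), of every measured member of 20 gene lists, with green points for called genes, open points for genes not called and a red line at each list's median. Mitosis, lysosome, sterol, antioxidant and interferon lists have medians of 0.36 to 0.84, the T cell receptor list is at -0.21, and ribosomal protein genes lie between -0.22 and 0.15.

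Of 47 mitosis genes, 22 rose and 0 fell, against 5.59% called higher over all genes, and the median change was 0.49. Mki67, the proliferation marker Ki-67, was at 5.50, 5.91 and 5.25 in deficient cells, against 3.20, 3.39 and 3.28 in wild-type cells, 4.79-fold higher (2.26 ± 0.15, adjusted p = 2.61e-07). Ube2c, a ubiquitin-conjugating enzyme of the anaphase-promoting complex, was at 3.68, 5.43 and 4.62 in deficient cells, against 2.66, 2.54 and 2.64 in wild-type cells (1.96 ± 0.31). Top2a, the topoisomerase that untangles chromosomes, was at 5.83, 6.47 and 5.92 in deficient cells, against 4.60, 4.67 and 4.60 in wild-type cells (1.45 ± 0.20, adjusted p = 0.000177). Cdca5, the cohesin regulator sororin, was at 5.62, 5.57 and 4.78 in deficient cells, against 4.36, 3.89 and 3.46 in wild-type cells (1.42 ± 0.28). The genotypes did not overlap for these 4 genes, and the wild-type arrays of Ube2c were under the table median.

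Birc5, the survivin of the chromosomal passenger complex (1.49 ± 0.25), Nusap1, a spindle protein (1.31 ± 0.27), and Cdk1, the kinase that starts mitosis (1.15 ± 0.25), rose too. Deficient replicate 2 was the highest array for Mki67, Ube2c, Top2a, Birc5, Nusap1 and Cdk1. The mean of the list, relative to the wild-type mean, was 0.44, 0.87 and 0.55 on the deficient arrays, against 0.02, -0.00 and -0.02 on the wild-type arrays. Foxm1, a factor that activates such genes in G2, was at 3.48, 3.53 and 3.42 in deficient cells, against 3.53, 3.43 and 4.33 in wild-type cells (-0.29 ± 0.18, adjusted p = 0.411), and the mitotic kinesins Kif11 (0.57 ± 0.21) and Kif23 (0.60 ± 0.26) were not called. The list held 15 to 22 higher genes as each array was left out, the fewest without wild-type replicate 2.

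Promoters of the mitosis genes often held a short motif. The letters TTTGAA, searched for on both strands, form the core of the cell cycle genes homology region, a promoter element known from genes expressed in G2 and mitosis. RefSeq windows (GRCm38.p6) from 250 bases before to 50 bases after the gene start were matched by symbol for 40 of the 47 genes, and 32 of them (80.0%) held it, against 15.7% of all 13514 genes with a window. Among called members it was 15 of 21 (71.4%), a share no higher than over the list. The windows of 3 members with large changes are printed with the motif, or its reverse complement TTCAAA, in capitals, since they show where it lies: 116 and 98 bases before the start in Mki67 (chr7:135716330-135716629, minus strand), 29 before it in Ube2c (chr2:164769679-164769978, plus strand), and 17 and 9 before it in Cdca5 (chr19:6084847-6085146, plus strand).
Mki67: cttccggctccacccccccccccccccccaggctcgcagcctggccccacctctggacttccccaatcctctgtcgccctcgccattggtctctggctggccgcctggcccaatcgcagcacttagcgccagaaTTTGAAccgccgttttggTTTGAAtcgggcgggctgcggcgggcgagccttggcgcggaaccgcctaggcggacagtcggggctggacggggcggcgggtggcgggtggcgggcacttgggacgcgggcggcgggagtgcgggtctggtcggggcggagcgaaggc
Ube2c: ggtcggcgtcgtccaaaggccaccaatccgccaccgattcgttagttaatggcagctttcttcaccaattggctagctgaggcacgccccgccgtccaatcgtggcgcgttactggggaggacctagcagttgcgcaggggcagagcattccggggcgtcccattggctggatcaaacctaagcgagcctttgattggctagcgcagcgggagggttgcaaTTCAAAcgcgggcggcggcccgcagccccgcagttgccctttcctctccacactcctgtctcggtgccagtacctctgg
Cdca5: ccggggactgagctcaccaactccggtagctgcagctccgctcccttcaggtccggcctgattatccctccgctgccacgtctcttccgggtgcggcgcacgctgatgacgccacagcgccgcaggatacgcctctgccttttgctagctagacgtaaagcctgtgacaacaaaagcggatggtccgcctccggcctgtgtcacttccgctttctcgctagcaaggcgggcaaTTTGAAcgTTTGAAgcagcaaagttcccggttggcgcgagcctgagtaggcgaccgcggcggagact
A match describes the sequence and is not evidence that a factor was bound.

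In G1 regulation, 6 of 26 cyclins, kinases and inhibitors rose and 2 fell, beside 5.59% and 3.86% of all genes. Cdkn1a, the inhibitor p21, was at 6.73, 6.14 and 5.78 in deficient cells, against 4.63, 5.50 and 4.73 in wild-type cells (1.27 ± 0.23, adjusted p = 0.00221). Cdkn2c, the inhibitor p18, was at 4.86, 5.50 and 5.45 in deficient cells, against 4.18, 4.06 and 4.11 in wild-type cells (1.15 ± 0.17). E2f2 was at 4.74, 5.06 and 4.59 in deficient cells, against 3.83, 3.46 and 3.97 in wild-type cells (1.04 ± 0.16). Ccnd3, a D-type cyclin, was at 7.28, 6.89 and 7.64 in deficient cells, against 8.49, 8.64 and 8.49 in wild-type cells (-1.27 ± 0.20, adjusted p = 0.000638), while Ccnd2 rose (0.54 ± 0.13) and so did their partner Cdk6 (0.65 ± 0.15). The list thus held inhibitors and promoters of cell cycle entry on its higher side. The retinoblastoma gene Rb1 was called as lower (-0.65 ± 0.17), and single arrays decided the calls of Rb1 (deficient replicates 1 and 2 and wild-type replicates 1, 2 and 3, adjusted p up to 0.0928) and Ccnd2 (wild-type replicate 2, adjusted p = 0.0637), while 2 of the other probe sets of Ccnd2 did not pass (0.31 and 0.22).

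Of 33 DNA replication genes, 5 rose and 1 fell, beside 5.59% and 3.86% of all genes, and the median change was 0.11. Rrm2, a subunit of the enzyme that makes deoxynucleotides, was at 4.73, 5.47 and 4.92 in deficient cells, against 3.59, 3.55 and 3.35 in wild-type cells (1.54 ± 0.17, adjusted p = 3.16e-05). Uhrf1, which helps to copy DNA methylation marks, was at 5.69, 5.60 and 5.26 in deficient cells, against 4.31, 4.20 and 3.85 in wild-type cells (1.40 ± 0.18, adjusted p = 9.8e-05). Chaf1b, a histone chaperone, rose by 0.65 ± 0.14. The helicase gene Mcm7 was called as lower (-0.51 ± 0.14), and Mcm2 was not called (-0.45 ± 0.15, adjusted p = 0.0639). The call of Mcm7 (deficient replicate 1 and wild-type replicates 1 and 2, adjusted p up to 0.114) rested on single arrays. In the Myc, Max and Mxd network, 3 of 11 genes rose and 0 fell. Mxd1, a Max partner that opposes Myc, was at 8.77, 8.70 and 8.74 in deficient cells, against 7.21, 6.92 and 7.30 in wild-type cells (1.60 ± 0.12, adjusted p = 5.31e-07), whereas Myc was at 8.98, 9.33 and 8.50 in deficient cells, against 8.88, 8.89 and 8.77 in wild-type cells, with overlap (0.09 ± 0.17, adjusted p = 0.831). Mxi1 (0.41 ± 0.12) and Zbtb17 (0.33 ± 0.09) were the other 2 calls. Single arrays decided the calls of Mxi1 (deficient replicates 1 and 2 and wild-type replicates 1, 2 and 3, adjusted p up to 0.183) and Zbtb17 (deficient replicate 2 and wild-type replicates 2 and 3, adjusted p up to 0.133), and Mxd1 alone was called without deficient replicate 2 or wild-type replicate 2 or 3.

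Among genes that control mTORC1 itself, 8 of 42 rose and 4 fell, Tsc1 and Rragd included, beside 5.59% and 3.86% of all genes. Rhebl1, a relative of Rheb that can also activate mTORC1, was at 4.20, 4.81 and 4.46 in deficient cells, against 6.14, 5.89 and 5.87 in wild-type cells (-1.47 ± 0.13, adjusted p = 2.75e-06). Ddit4, an inhibitor of mTORC1 induced by stress, was at 7.22, 7.58 and 6.59 in deficient cells, against 5.90, 6.28 and 5.59 in wild-type cells (1.21 ± 0.24). Fnip1, a partner of folliculin in Rag control, was at 9.28, 8.96 and 8.82 in deficient cells, against 8.13, 8.14 and 8.23 in wild-type cells (0.85 ± 0.16). Sesn2, a leucine sensor that restrains mTORC1, was at 5.83, 5.65 and 5.36 in deficient cells, against 4.89, 4.81 and 4.90 in wild-type cells (0.75 ± 0.16). None of these overlapped between genotypes, and the wild-type arrays of Fnip1 and Sesn2 were close together.

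Rheb itself was at 10.32, 10.33 and 10.28 in deficient cells, against 10.25, 10.34 and 10.33 in wild-type cells (0.01 ± 0.08, adjusted p = 0.987). Flcn, folliculin, was at 6.15, 6.97 and 6.98 in deficient cells, against 6.54, 6.45 and 6.42 in wild-type cells (0.23 ± 0.17, adjusted p = 0.503), and without deficient replicate 1, its lowest array, the change was 0.51 (adjusted p = 0.0103). Rictor, the defining subunit of mTORC2 (-0.62 ± 0.17), and Akt2, a kinase downstream of it (-0.37 ± 0.09), completed the lower genes and were named after their values were seen. Both calls were fragile, being lost for Rictor (deficient replicates 1 and 2 and wild-type replicates 1, 2 and 3, adjusted p up to 0.101) and Akt2 (deficient replicate 1 and wild-type replicates 1, 2 and 3, adjusted p up to 0.0719). The list held 5 to 8 higher and 2 to 4 lower genes as each array was left out, with 5 higher without wild-type replicate 1 or 2 and 2 lower without those or deficient replicate 1.

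Of 38 lysosome and autophagy genes, 20 rose and 0 fell, beside 5.59% and 3.86% of all genes, and the median change was 0.47. Gla, the hydrolase alpha-galactosidase A, was at 5.30, 5.56 and 4.56 in deficient cells, against 3.55, 3.47 and 3.06 in wild-type cells, 3.44-fold higher (1.78 ± 0.20, adjusted p = 3.38e-05). Ctsl, the protease cathepsin L, was at 8.30, 9.04 and 8.80 in deficient cells, against 7.62, 7.67 and 7.48 in wild-type cells (1.12 ± 0.18). Hexa, a hexosaminidase subunit, was at 8.55, 8.14 and 8.26 in deficient cells, against 7.46, 7.43 and 7.28 in wild-type cells (0.93 ± 0.10, adjusted p = 2.32e-05). Ctsd, cathepsin D, was at 8.41, 8.01 and 7.98 in deficient cells, against 7.51, 7.51 and 7.42 in wild-type cells (0.65 ± 0.10). No deficient array of these 4 genes fell among the wild-type arrays. Dimmer probe sets of Gla (0.72) and Ctsl (0.42) did not pass.

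Gabarapl1, which decorates autophagosome membranes (0.76 ± 0.14), Npc1, the cholesterol exporter of lysosomes (0.63 ± 0.11), and the membrane proteins Lamp2 (0.49 ± 0.12) and Lamp1 (0.47 ± 0.11) rose as well. The 2 other probe sets of Lamp2 gave larger changes, 1.03 (limma adjusted p = 1.49e-05 over all probe sets) and 1.02 (adjusted p = 0.00559). The mean of the list relative to wild-type was 0.43, 0.39 and 0.39 on the deficient arrays, against 0.03, -0.00 and -0.03 on the wild-type arrays, with deficient replicate 1 next to the other 2. Atp6v0d2, a vacuolar ATPase subunit of osteoclasts, stayed under the table median in both genotypes (0.07 ± 0.15). Between 17 and 20 members rose and 0 or 1 fell as each array was left out, and Lamp2 (wild-type replicate 1, adjusted p = 0.0573) and Lamp1 (wild-type replicate 3, adjusted p = 0.057) lost their calls to 1 array each.

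The letters CACGTG, which read the same on both strands, are the core of the element through which the factors TFEB and TFE3 are known to act at lysosome genes. Windows were matched for 29 of the 38 genes, of which 12 (41.4%) held it, against 10.2% of all 13514 windows. Among the called members it was 7 of 16 (43.8%), and among all genes called higher 15.5%, close to the 14% among genes called lower. The windows of 4 members that rose are printed with the motif in capitals to show how it recurs: once in Ctsl, 236 bases before the start, as a pair in Gla, 227 and 194 before it, and in Ctsd, 245 and 98 before it, and 4 times in Lamp1, 61, 45, 28 and 15 before it. They lie at chr13:64370471-64370770 on the minus strand (Ctsl), chrX:134600956-134601255 on the minus strand (Gla), chr7:142387778-142388077 on the minus strand (Ctsd) and chr8:13158911-13159210 on the plus strand (Lamp1, named after its values were seen).
Ctsl: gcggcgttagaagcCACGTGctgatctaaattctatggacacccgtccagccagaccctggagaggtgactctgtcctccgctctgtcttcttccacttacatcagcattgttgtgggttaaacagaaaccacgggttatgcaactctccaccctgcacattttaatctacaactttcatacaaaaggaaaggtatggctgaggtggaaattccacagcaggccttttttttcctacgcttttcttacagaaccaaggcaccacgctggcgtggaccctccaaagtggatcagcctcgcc
Gla: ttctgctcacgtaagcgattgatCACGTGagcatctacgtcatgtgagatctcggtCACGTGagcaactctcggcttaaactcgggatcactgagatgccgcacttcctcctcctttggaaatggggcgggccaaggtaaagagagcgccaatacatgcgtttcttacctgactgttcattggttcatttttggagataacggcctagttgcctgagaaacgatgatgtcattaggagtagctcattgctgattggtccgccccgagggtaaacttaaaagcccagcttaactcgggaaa
Ctsd: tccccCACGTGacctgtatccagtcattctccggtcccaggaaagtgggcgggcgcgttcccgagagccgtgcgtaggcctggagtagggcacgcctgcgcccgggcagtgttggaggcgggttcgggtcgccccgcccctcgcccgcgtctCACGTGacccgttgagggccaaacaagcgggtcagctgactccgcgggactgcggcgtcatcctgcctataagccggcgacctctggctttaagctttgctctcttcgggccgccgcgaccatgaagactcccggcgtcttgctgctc
Lamp1: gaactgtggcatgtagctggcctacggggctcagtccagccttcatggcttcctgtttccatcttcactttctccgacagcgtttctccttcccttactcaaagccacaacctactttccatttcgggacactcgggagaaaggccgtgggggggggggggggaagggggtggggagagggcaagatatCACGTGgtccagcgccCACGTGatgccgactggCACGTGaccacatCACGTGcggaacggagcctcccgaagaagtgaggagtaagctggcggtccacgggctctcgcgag
The window of Rragd held no CACGTG, which says only that these letters are not in that window.

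Sterol and fatty acid synthesis genes rose in 15 of 34 cases and fell in 0, beside 5.59% and 3.86% of all genes, with a median change of 0.36. Mvd, an enzyme of the mevalonate pathway, was at 5.14, 4.77 and 4.93 in deficient cells, against 4.26, 4.15 and 3.96 in wild-type cells (0.82 ± 0.12, adjusted p = 0.000216). Scd1, which desaturates fatty acids, was at 4.40, 4.70 and 4.69 in deficient cells, against 3.68, 3.68 and 3.78 in wild-type cells (0.89 ± 0.21). Elovl6, which lengthens them, was at 5.18, 5.35 and 5.70 in deficient cells, against 4.68, 4.39 and 4.57 in wild-type cells (0.86 ± 0.17). Insig1, a sterol sensor that holds SREBP factors back, was at 8.29, 7.80 and 7.90 in deficient cells, against 7.33, 7.29 and 7.20 in wild-type cells (0.72 ± 0.14). The isomerase Idi1 (0.61 ± 0.12), the demethylase Cyp51 (0.61 ± 0.14) and fatty acid synthase, Fasn (0.53 ± 0.11), also rose, and Hmgcs1, measured by a dim probe set, did not pass (0.18 ± 0.16, adjusted p = 0.615). The count was 8 without wild-type replicate 2 or 3 and 10 without deficient replicate 1, and Cyp51 (wild-type replicates 2 and 3, adjusted p up to 0.0582) was among the calls lost. The other probe set of Mvd (0.29) and the next brightest of Cyp51 (0.34) did not pass.

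Glycolysis, pentose phosphate and hypoxia genes rose in 11 of 33 cases and fell in 0, beside 5.59% and 3.86% of all genes. Tpi1, triosephosphate isomerase, was at 7.56, 7.31 and 7.01 in deficient cells, against 6.17, 6.47 and 6.20 in wild-type cells (1.02 ± 0.12, adjusted p = 5.86e-05). Aldoc, an aldolase, was at 4.18, 3.75 and 3.83 in deficient cells, against 3.03, 3.09 and 2.85 in wild-type cells (0.93 ± 0.15). Gapdh was at 12.41, 12.35 and 12.06 in deficient cells, against 11.72, 11.85 and 11.79 in wild-type cells (0.49 ± 0.10). The lactate transporter Slc16a1 was at 9.17, 9.19 and 8.61 in deficient cells, against 8.46, 8.16 and 8.09 in wild-type cells (0.76 ± 0.17). Pgd, which yields NADPH in the pentose phosphate pathway, rose by 0.53 ± 0.12. The glucose transporter Slc2a1 (0.19 ± 0.12), hexokinase 2, Hk2 (0.17 ± 0.21), lactate dehydrogenase, Ldha (0.08 ± 0.09), and Hif1a (0.23 ± 0.10), genes that stand for the glycolytic programme of mTORC1, were not called, and for the first 3 the genotypes overlapped. The list held 7 to 10 higher genes as each array was left out, and 7 without wild-type replicate 2.

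ATF4 is a factor that mTORC1 and amino acid shortage can each activate. Of 28 of its targets and tRNA synthetases, 9 rose and 1 fell, beside 5.59% and 3.86% of all genes. Psph was at 6.92, 7.41 and 7.14 in deficient cells, against 5.96, 6.05 and 6.11 in wild-type cells (1.11 ± 0.14, adjusted p = 6.46e-05). Phgdh was at 7.13, 6.73 and 6.57 in deficient cells, against 5.97, 5.97 and 5.80 in wild-type cells (0.90 ± 0.12, adjusted p = 0.000203). They encode the last and the first enzyme of serine synthesis. The synthetases Eprs (0.87 ± 0.18), Aars (0.73 ± 0.13) and Wars (0.68 ± 0.14) charge tRNAs with glutamate and proline, alanine and tryptophan, and all 3 rose, though the dimmest of the Eprs probe sets did not pass (0.105). Trib3 (0.50 ± 0.11), Asns (0.49 ± 0.13) and Ddit3 (0.42 ± 0.11) were called as higher, and Shmt1, a serine hydroxymethyltransferase, as lower (-0.36 ± 0.10). Single arrays decided Trib3 (wild-type replicate 1, adjusted p = 0.0565), Asns (deficient replicates 1 and 2 and wild-type replicates 2 and 3, adjusted p up to 0.117), Ddit3 (deficient replicates 2 and 3 and wild-type replicates 1 and 3, adjusted p up to 0.119) and Shmt1 (deficient replicate 1 and wild-type replicates 2 and 3, adjusted p up to 0.156). Amino acid transporters did not share the change. Of 16, 0 rose and 2 fell, namely Slc7a3 (-0.71 ± 0.19) and Slc7a6 (-0.49 ± 0.15). Slc7a5 was at 8.07, 8.41 and 7.94 in deficient cells, against 7.93, 8.04 and 7.83 in wild-type cells, with overlap, and Slc1a5 and Slc38a2 overlapped too. Both calls were fragile, for Slc7a3 (deficient replicate 1 and wild-type replicates 1 and 3, adjusted p up to 0.129) and Slc7a6 (deficient replicates 1 and 3 and wild-type replicates 1, 2 and 3, adjusted p up to 0.186), and 0 transporters fell without deficient replicate 1 or wild-type replicate 1 or 3.

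Antioxidant genes rose in 12 of 23 cases and fell in 1, beside 5.59% and 3.86% of all genes, with a median change of 0.37. Txnrd1, the cytosolic thioredoxin reductase, was at 8.21, 8.41 and 8.10 in deficient cells, against 7.30, 7.22 and 7.21 in wild-type cells (0.998 ± 0.09, adjusted p = 5.23e-06). Ftl1, the ferritin light chain that stores iron, was at 11.83, 11.83 and 11.77 in deficient cells, against 10.93, 11.08 and 11.04 in wild-type cells (0.79 ± 0.08, adjusted p = 1.92e-05). Prdx2, a peroxiredoxin, was at 9.01, 8.97 and 8.84 in deficient cells, against 8.16, 8.16 and 8.14 in wild-type cells (0.78 ± 0.10, adjusted p = 7.68e-05). The arrays of each genotype were close together for these 3 genes, and the genotypes did not overlap. Gpx1, a glutathione peroxidase (0.70 ± 0.10), Gsr, glutathione reductase (0.65 ± 0.12), and Gclc, which makes the precursor of glutathione (0.62 ± 0.12), rose as well, though a second probe set of Gsr did not pass (0.34). Txnrd2, the mitochondrial reductase, was the lower gene, at 4.33, 4.18 and 4.13 in deficient cells, against 4.75, 4.65 and 4.54 in wild-type cells (-0.44 ± 0.09), and was named after its values were seen. The haem oxygenase Hmox1 was at 3.46, 4.10 and 3.58 in deficient cells, against 3.64, 3.43 and 3.72 in wild-type cells, with overlap (0.12 ± 0.20). Between 8 and 13 members rose as each array was left out, with 8 without wild-type replicate 1.

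**Figure D3:**
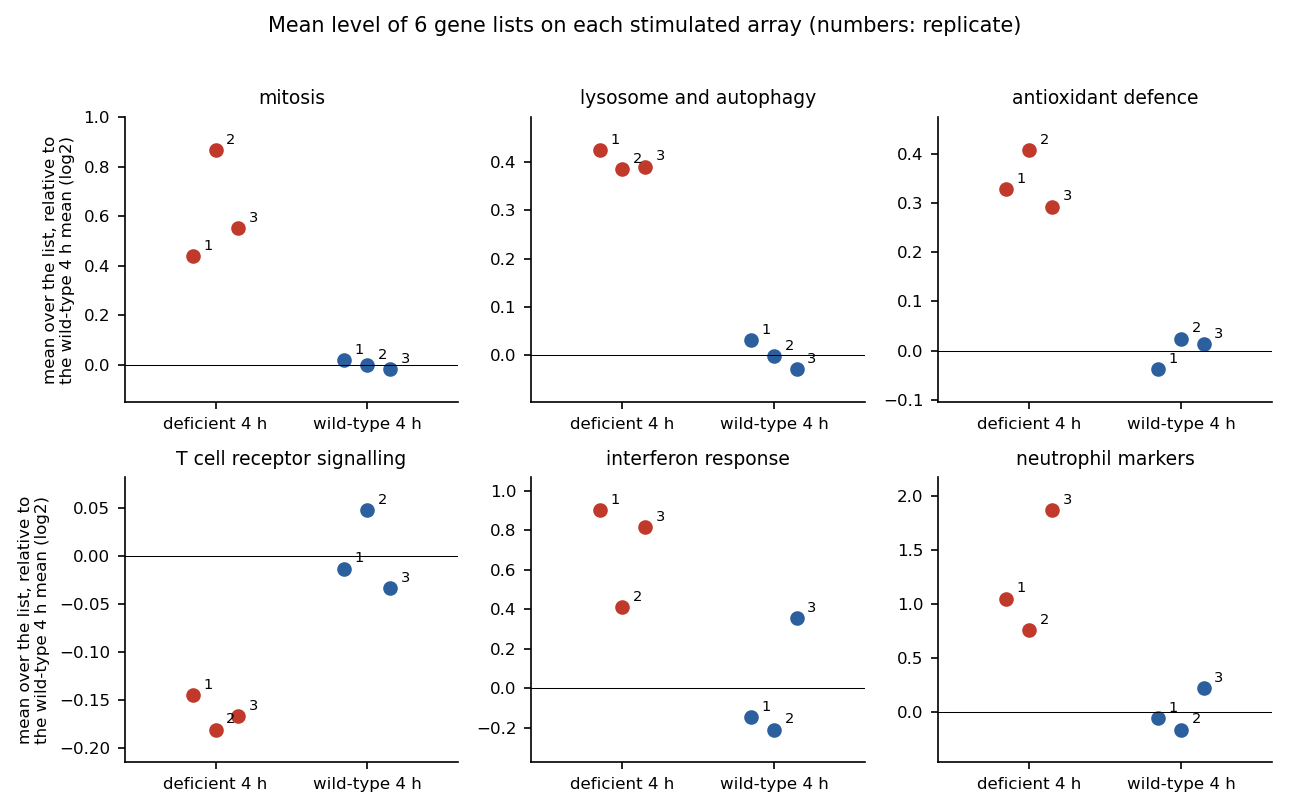
Mean of all measured members of 6 gene lists on each stimulated array, relative to the mean of the 3 wild-type arrays (vertical axis, log2), deficient arrays left of wild-type arrays and numbered by replicate. Lysosome and antioxidant genes are at 0.29 to 0.43 on every deficient array, while interferon genes are at 0.41 to 0.90 on deficient arrays, against -0.21 to 0.36 on wild-type arrays, and neutrophil markers are highest on deficient replicate 3.

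Other lists of the cell's basic machinery were measured, beside 9.45% of all genes called either way. Of 64 cytosolic ribosomal protein genes, limma called 0, 0 had an unadjusted p under 0.05, and their changes ran from -0.22 to 0.15 with a median of -0.05. Ribosome biogenesis genes gave 1 higher and 2 lower of 35, where Ubtf, a factor of RNA polymerase I, rose (0.59 ± 0.10) and Utp20, a processing factor, fell (-0.47 ± 0.10). Of 25 translation factors 2 were called as higher and 3 as lower, among them Pdcd4, an inhibitor of the helicase eIF4A that mTORC1 signalling removes as a protein, at 10.04, 9.94 and 10.07 in deficient cells, against 10.63, 10.51 and 10.54 in wild-type cells (-0.55 ± 0.09). Oxidative phosphorylation subunits gave 3 higher and 2 lower of 66, led by Ndufv3 of complex I (0.53 ± 0.10) and, on the lower side, Sdha of complex II (-0.45 ± 0.09). The proteasome list gave 1 higher and 0 lower of 38, Psmc5 (0.32 ± 0.08), and the chaperone and unfolded protein response list 3 and 1 of 36, with Calr, the calreticulin of the endoplasmic reticulum, highest (0.59 ± 0.13). Other probe sets of Ubtf (0.397) and Sdha (0.06, -0.37 and -0.175) did not pass, and the call of Psmc5 (deficient replicate 2 and wild-type replicates 1, 2 and 3, adjusted p up to 0.0733) rested on single arrays. With deficient replicate 3 left out, 5 ribosome biogenesis genes and 2 proteasome genes rose, and with deficient replicate 1 left out 3 proteasome genes did. Of the translation factors, 1 rose without deficient replicate 1 and 0 without deficient replicate 2 or wild-type replicate 1, 2 or 3, while 1 fell without deficient replicate 1 or wild-type replicate 1 or 2 and 2 without wild-type replicate 3. A single gene of the chaperone list rose without deficient replicate 2 or wild-type replicate 3.

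Of 36 interferon response genes 14 rose and 0 fell, beside 5.59% and 3.86% of all genes. Their median change was 0.84, or 0.66 without deficient replicate 1. Usp18, a protease that removes ISG15 and curbs interferon signalling, was at 9.50, 8.51 and 8.75 in deficient cells, against 6.82, 7.02 and 7.97 in wild-type cells (1.65 ± 0.30, adjusted p = 0.00178). Ifit3, an antiviral protein, was at 9.50, 8.69 and 9.35 in deficient cells, against 6.94, 7.37 and 8.26 in wild-type cells (1.66 ± 0.38, adjusted p = 0.0105). Oas1g, of the family that senses double-stranded RNA, was at 8.41, 7.38 and 7.86 in deficient cells, against 6.47, 6.54 and 6.98 in wild-type cells (1.22 ± 0.24). Irf7, the factor that amplifies the response, was at 8.76, 7.98 and 8.39 in deficient cells, against 7.50, 7.19 and 7.84 in wild-type cells (0.87 ± 0.22). Deficient replicate 1 was the highest and wild-type replicate 3 the highest of its group for each of the 4. The list mean was 0.90, 0.41 and 0.82 on the deficient arrays, against -0.15, -0.21 and 0.36 on the wild-type arrays, so that wild-type replicate 3 came close to deficient replicate 2. Leaving out wild-type replicate 1 gave 4 calls, wild-type replicate 2 gave 6, deficient replicate 1 gave 9, and deficient replicate 2 or wild-type replicate 3 gave 18. Among these genes Ifit3 (wild-type replicate 1, adjusted p = 0.0636) and Irf7 (deficient replicate 1 and wild-type replicates 1 and 2, adjusted p up to 0.0955) lost their calls. Ifit1bl1, a relative of the Ifit genes, was at 11.59, 11.24 and 11.41 in deficient cells, against 9.37, 9.37 and 10.13 in wild-type cells (1.79 ± 0.19, adjusted p = 1.66e-05). The rise of Ifng in the same cells is given above, and its part in the interferon list was not tested.

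The BCL-2 family held 4 genes that rose and 1 that fell, of 17, beside 5.59% and 3.86% of all genes. Bcl2l11, the death-promoting protein BIM, was at 12.09, 11.83 and 11.57 in deficient cells, against 10.91, 11.11 and 11.01 in wild-type cells (0.82 ± 0.11, adjusted p = 0.000174). Bcl2l1, the protective BCL-XL, was at 6.71, 7.39 and 6.55 in deficient cells, against 5.88, 6.08 and 6.16 in wild-type cells (0.84 ± 0.18). Bak1, a pore-forming death effector, was at 6.65, 6.11 and 6.07 in deficient cells, against 5.59, 5.69 and 5.70 in wild-type cells (0.61 ± 0.14). Bbc3, the death-promoting PUMA, was lower, at 5.49, 5.62 and 5.83 in deficient cells, against 6.39, 6.49 and 6.35 in wild-type cells (-0.76 ± 0.13, adjusted p = 0.0011). Members of both kinds thus moved, and Bcl2 (-0.28 ± 0.14) and Mcl1 (-0.18 ± 0.11) were not called. The 3 other, dim probe sets of Bcl2l1 did not pass (-0.03, 0.18 and 0.02). Bad, another death promoter, was called as higher (0.45 ± 0.12), and single arrays decided the call of Bad (deficient replicates 1 and 2 and wild-type replicates 1 and 3, adjusted p up to 0.129), while its second probe set passed at 0.67 (limma adjusted p = 0.00267 over all probe sets).

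Unstimulated CD4 cells are the closest comparison in the series, and it shares no array with the stimulated one. It gave 997 calls (5.83%), 677 higher (3.96%) and 320 lower (1.87%), and 589 to 704 as each of its arrays was left out, the fewest without deficient replicate 1. Genes called in both numbered 442, which is 27.35% of the stimulated and 44.33% of the unstimulated calls, and 428 of them had the same direction. Abcb1a was 3.63 ± 0.20 at 0 h beside 3.69 ± 0.20 at 4 h, Rragd 2.87 ± 0.21 beside 2.99 ± 0.21, and Acot7 2.31 ± 0.21 beside 2.31 ± 0.21. Lysosome genes gave 21 higher and 0 lower at 0 h, mitosis genes 15 and 0, and sterol genes 14 and 0. Counts of other lists were less alike at the 2 times. Higher genes numbered 3 at 0 h and 14 at 4 h for interferon response, 5 and 12 for antioxidant defence, and 2 and 11 for the glycolysis list. For oxidative phosphorylation they numbered 19 at 0 h and 3 at 4 h. Such counts do not test whether changes differ between the times.

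The series holds no cells cultured for 4 h without the antibodies, so in comparing 4 h with 0 h, culture cannot be told apart from stimulation. The difference between the 2 genotype differences was tested in the same model and passed for 206 genes (1.2%), 93 with a larger (0.544%) and 113 with a smaller value (0.661%) at 4 h. Of these, 150 were also called in stimulated cells, and 120 of the 150 were not called at 0 h. The count of 206 became 103 to 287 as single arrays were left out. It was lowest without unstimulated deficient replicate 1 (115) or 2 (103), unstimulated wild-type replicate 1 (115) or 2 (109), or stimulated wild-type replicate 2 (112). Of the 27 cytokines 0 rose and 1 fell at 0 h, beside 3.96% and 1.87% of all genes. The difference passed for 5 of the 27, all of them positive. Il4 was at 2.39, 2.33 and 2.24 in unstimulated deficient cells, against 2.45, 2.14 and 2.09 in unstimulated wild-type cells, and its difference of differences was 1.60 ± 0.26 (adjusted p = 0.00583). For Ifng it was 1.58 ± 0.32 (adjusted p = 0.0239), for Tnfsf10 1.502 ± 0.23 (adjusted p = 0.00439), for Csf2 1.10 ± 0.25 (adjusted p = 0.04) and for Il5 0.88 ± 0.16 (adjusted p = 0.0144). Cytokine feedback followed with Cish (1.17 ± 0.18, adjusted p = 0.00348), and Mxd1 gave 1.38 ± 0.16 (adjusted p = 0.000471).

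In the receptor signalling list of 39, 2 genes rose and 0 fell at 0 h, beside 3.96% and 1.87% of all genes, and the median there was -0.01. The difference passed for 5 genes, all negative, beside 0.661% of all genes with a negative one. Ptpn6 was at 9.62, 9.60 and 9.68 in unstimulated deficient cells, against 9.77, 9.59 and 9.57 in unstimulated wild-type cells (-0.01 ± 0.13), a difference of differences of -1.15 ± 0.18 (adjusted p = 0.00513). Cd3g gave -0.84 ± 0.12 (adjusted p = 0.00193), Fyn -0.56 ± 0.12 (adjusted p = 0.0323) and Nfatc1 -0.68 ± 0.16 (adjusted p = 0.0497). None of these 4 was called at 0 h. Of the surface molecules, Cd27 (-0.87 ± 0.15, adjusted p = 0.00852), Cd5 (-0.74 ± 0.16, adjusted p = 0.0386) and Cd28 (-0.78 ± 0.18, adjusted p = 0.0421) likewise passed for the difference and not at 0 h. Nab2 (-1.47 ± 0.25, adjusted p = 0.00789), Hivep3, a zinc-finger factor (-1.39 ± 0.23, adjusted p = 0.00583), Sh3bp2, an adaptor of antigen receptor signalling (-1.52 ± 0.21, adjusted p = 0.00137), and Trav6-3, a variable segment of the T cell receptor alpha chain (-1.42 ± 0.25, adjusted p = 0.00852), were also lower at 4 h and not called at 0 h, though 3 of the 4 other probe sets of Hivep3 did not pass at 4 h.

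Genes with the largest positive difference included Plagl1, a zinc-finger factor, at 8.35, 9.30 and 8.27 in stimulated deficient cells, against 6.95, 7.15 and 6.85 in stimulated wild-type cells, and at 3.03, 3.12 and 3.32 in unstimulated deficient cells, against 3.01, 3.45 and 3.16 in unstimulated wild-type cells (1.71 ± 0.30, adjusted p = 0.00831). Signals at 4 h were above those at 0 h in both genotypes, and a second, dim probe set did not pass (0.04). Serpinc1, antithrombin, was at 5.25, 5.11 and 5.80 in deficient cells, against 3.81, 3.61 and 3.89 in wild-type cells, and the difference of differences was 1.62 ± 0.21 (adjusted p = 0.000932). C9orf72, a partner of autophagy and Rab regulators, gave 1.62 ± 0.32 (adjusted p = 0.0185), Tlcd2 1.59 ± 0.35 (adjusted p = 0.0371), and Ccdc69 1.43 ± 0.18 (adjusted p = 0.00084), whose 2 other probe sets did not pass. Usp18 gave 1.89 ± 0.42 (adjusted p = 0.0383).

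Changes could also be smaller at 4 h than at 0 h. Ccr9 was 3.94 ± 0.19 at 0 h (-1.91 for the difference, adjusted p = 0.00193), Fam221a 3.69 ± 0.17 at 0 h beside 1.35 ± 0.17 at 4 h (-2.34, adjusted p = 0.000345), and Hpgds, a prostaglandin D synthase, 3.01 ± 0.18 beside 0.69 ± 0.18 (-2.31, adjusted p = 0.000396). These 3 were higher in deficient cells at both times. Among the genes called in both comparisons, 14 had opposite directions, 8 higher at 4 h and lower at 0 h, and 6 the other way. Irf4 was at 4.87, 5.14 and 5.41 in unstimulated deficient cells, against 4.28, 4.13 and 4.14 in unstimulated wild-type cells (0.96 ± 0.14, adjusted p = 0.000334), and lower in deficient cells at 4 h, as given above (-1.43 ± 0.19, adjusted p = 0.00137). Ramp3, which modifies calcitonin-family receptors, was -0.93 ± 0.24 at 0 h and 0.91 ± 0.24 at 4 h, with overlapping arrays at 4 h. Cd200 (-0.54 ± 0.14 at 0 h) and the integrin chain Itgb3 (-0.40 ± 0.10 at 0 h, 0.36 ± 0.10 at 4 h) were also lower first and higher later. At 4 h, single arrays decided the calls of Hpgds (deficient replicate 2 and wild-type replicates 2 and 3, adjusted p up to 0.0998), Ramp3 (deficient replicates 1 and 2 and wild-type replicates 1 and 3, adjusted p up to 0.108) and Itgb3 (deficient replicate 1 and wild-type replicates 1, 2 and 3, adjusted p up to 0.147), as they did those of Irf4 and Cd200 given above.

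**Figure D4:**
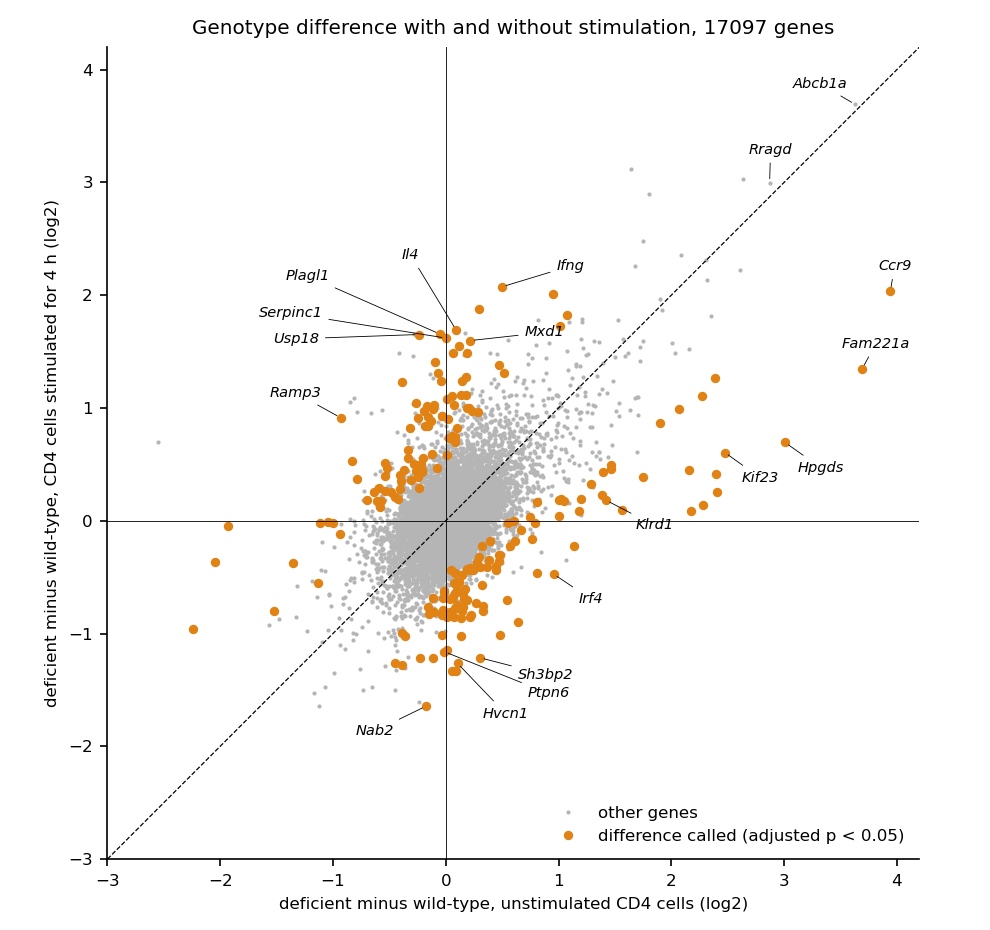
Change in stimulated cells (vertical axis, log2, deficient minus wild-type at 4 h) against the change in unstimulated cells (horizontal axis, log2, at 0 h) for 17097 genes, with orange points for the 206 genes whose difference of differences was called and a dashed line where both changes are equal. Abcb1a and Rragd lie on the line, Ifng, Il4 and Plagl1 above it, and Ptpn6, Nab2, Irf4 and Ccr9 below it.

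Markers of other blood cells were measured in the same arrays, and their part in the results was not tested. The counts of all these marker lists stand beside 5.59% of all genes called higher and 3.86% called lower. Of 12 neutrophil markers, 4 rose and 0 fell. S100a8 was at 7.42, 6.70 and 8.55 in deficient cells, against 4.60, 3.78 and 4.95 in wild-type cells (3.11 ± 0.64, adjusted p = 0.0047). S100a9 was at 7.73, 7.11 and 8.89 in deficient cells, against 5.21, 4.17 and 5.67 in wild-type cells (2.89 ± 0.61). Ngp was at 6.01, 5.76 and 7.41 in deficient cells, against 3.06, 3.30 and 3.74 in wild-type cells (3.03 ± 0.67). Camp was at 4.77, 4.90 and 6.44 in deficient cells, against 2.82, 2.89 and 2.97 in wild-type cells (2.48 ± 0.52). Deficient replicate 3 was the highest array for all 4. The summed linear signal of the 12 was 387 to 1238 in deficient cells and 107 to 169 in wild-type cells, and Elane, Mmp8, Mmp9 and Cxcr2 were under the table median in both. Jchain, the joining chain of secreted antibodies, was at 7.60, 7.91 and 8.49 in deficient cells, against 6.13, 6.49 and 5.78 in wild-type cells (1.87 ± 0.31).

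Of 14 monocyte, macrophage and dendritic cell markers, 3 rose and 0 fell, namely Lyz2 (1.18 ± 0.31), Mpeg1 (0.83 ± 0.22) and Cd68 (0.76 ± 0.13), with a summed signal of 179.5 to 206.5 in deficient cells, against 136 to 154 in wild-type cells. Lyz1, Cd14, Itgam, Fcgr1, Fcgr3, Itgax, Flt3 and Cd209a were under the table median in both. Calls were lost on leaving out 1 array for Lyz2 (deficient replicate 3 and wild-type replicates 1 and 2, adjusted p up to 0.0935) and Mpeg1 (deficient replicates 2 and 3 and wild-type replicates 1 and 2, adjusted p up to 0.111), so that Cd68 alone was called without deficient replicate 3 or wild-type replicate 1 or 2.

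Limma called 0 of 12 B cell markers (sums of 184.5 to 214 in deficient and 146 to 165.0 in wild-type cells), 0 of 10 NK and NKT cell markers (189 to 269.9 in deficient and 169 to 186 in wild-type cells), 0 of 4 CD8 markers (232.5 to 292 in deficient and 264 to 334 in wild-type cells), 0 of 8 erythroid and platelet markers (359 to 746 in deficient and 196 to 478 in wild-type cells) and 0 of 2 gamma delta T cell markers (15.8 to 18.4 in deficient and 15.5 to 16.3 in wild-type cells). An unadjusted p under 0.05 was found for 4 B cell and 3 NK and NKT cell markers, all higher, for 1 CD8 marker, lower, and for 0 of the last 2 lists. All 12 B cell markers had a positive change, and 1 B cell and 1 NK and NKT cell marker were called as higher without deficient replicate 1. Under the table median in both genotypes were 7 of the 10 NK and NKT cell, 5 of the 8 erythroid and platelet and 4 of the 12 B cell markers. A count of 0 calls thus does not show that such cells were absent. Regulatory T cell markers gave 3 higher and 1 lower of 9 (991 to 1204 in deficient and 797 to 988 in wild-type cells), where Nrp1 (0.98 ± 0.22), the factor Ikzf2 (0.73 ± 0.19) and Il2ra rose and Capg fell (-0.51 ± 0.12). Foxp3, the defining factor, was at 4.36, 4.07 and 4.34 in deficient cells, against 3.72, 3.60 and 4.04 in wild-type cells (0.47 ± 0.18, adjusted p = 0.127). On leaving out 1 array calls were lost for Nrp1 (wild-type replicate 3, adjusted p = 0.0553), Ikzf2 (deficient replicate 2 and wild-type replicates 1 and 3, adjusted p up to 0.114), Il2ra (deficient replicate 3 and wild-type replicates 1, 2 and 3, adjusted p up to 0.153) and Capg (deficient replicate 2 and wild-type replicate 2, adjusted p up to 0.0822), and 0 rose without wild-type replicate 3. Of 8 immature thymocyte markers, Cd24a rose, at 7.63, 8.33 and 7.95 in deficient cells, against 6.61, 6.68 and 6.16 in wild-type cells (1.48 ± 0.29), and Rag1, Rag2 and Ptcra were under the table median in both genotypes (sums of 336 to 481 in deficient and 205 to 236 in wild-type cells). In bulk RNA, a change in the number of cells of a type cannot be told apart from a change in RNA per cell.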

How the data were processed

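The deposited values are log2 signals of 45141 probe sets on 16 Affymetrix mouse arrays. RMA and Partek 6.5 are named for them, per the submitters' processing notes, with neither role nor genome build. RMA compresses changes near background. Probe sets were named from GEO's platform annotation: 28898 name 1 gene, 551 several and 15588 none, and 104 are controls. Through RefSeq (GRCm38.p6), 28689 of the 28898 were matched, with 0 symbols changed. One fit served all 16 arrays in 6 groups (limma 3.58.1 in R 4.3.3, lmFit and eBayes, residual df 10), with Benjamini-Hochberg adjustment over 17097 genes, and the difference of differences was a contrast of that fit. Scripts also used Python 3.11.15, numpy 2.4.6, pandas 2.3.3 and matplotlib 3.10.9, and the fit was tested on simulated data. The CD8 arrays entered only through the shared error, the choice of 1 probe set per gene and the table median.

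The gene lists were chosen with earlier results of these data known. Named genes came from the 20 largest changes each way (called, arrays not overlapping, higher mean above the table median), the key members and up to 6 called members of each list (all called ones in short lists), and the 10 largest each way for the difference of differences among genes also called in stimulated cells. Akt2, Rictor, Ltb, Themis, Txnrd2, Lamp1, Gapdh's control probe sets and the genes said to be below the table median were named after values were seen. Alternatives covered probe set choice, dim genes, scaling, prior, array weights, a covariate for RNA quality, leaving arrays out, thresholds, and a block of adjacent sample codes.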

Additional observations from a re-analysis of the deposited data

Results flagged for a closer look

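The genotype difference at 4 h differed from that at 0 h, by the test of the difference of differences (limma, adjusted p under 0.05), for 47 of the genes named above, and the values are the 4 h change minus the 0 h change. Over all genes, the count of 206 fell to as few as 103 with 1 array left out. With the replicate block described below, 106 of the 206 were called. Which of the 47 kept their call is not given here. Nfatc1 and Itgav (limma adjusted p = 0.0497 for both) were close to the threshold. Larger at 4 h were the cytokine and chemokine genes Il4 (1.60), Ifng (1.58), Tnfsf10 (1.502), Ccl1 (1.12), Csf2 (1.10) and Il5 (0.88), and with them Cish (1.17) and Il18r1 (0.59). So were Usp18 (1.89), Ramp3 (1.85), Plagl1 (1.71), C9orf72 (1.62), Serpinc1 (1.62), Tlcd2 (1.59), Ccdc69 (1.43), Mxd1 (1.38), Lgals1 (1.15), Serpinb6b (1.05), Cd200 (1.05), Cd44 (0.97), Txnrd1 (0.79), Glrx (0.76), Itgb3 (0.75), Bcl2l11 (0.72), Ubtf (0.71) and Itgav (0.62).

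Lower at 4 h relative to 0 h were the T cell receptor and surface genes Ptpn6 (-1.15), Cd27 (-0.87), Cd3g (-0.84), Cd28 (-0.78), Cd5 (-0.74), Nfatc1 (-0.68), Fyn (-0.56), Sh3bp2 (-1.52) and Trav6-3 (-1.42). The transcription regulators Nab2 (-1.47), Irf4 (-1.43) and Hivep3 (-1.39) were too, as were Fam221a (-2.34), Hpgds (-2.31), Ccr9 (-1.91), Kif23 (-1.87), Hvcn1 (-1.37), Bbc3 (-0.92), S1pr1 (-0.89), Pdcd4 (-0.65) and Rasal3 (-0.55). Kif23, a mitotic kinesin, was not called at 4 h, and its 0 h change was 2.47 ± 0.26 (adjusted p = 1.17e-05). Cd44 was not called at 4 h either, and its 0 h change was -0.997 ± 0.12 (adjusted p = 8.38e-05). Il18r1 was lower at both times, with -1.14 ± 0.09 at 0 h (adjusted p = 8.58e-07).

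Probe sets with no gene name were outside the comparison by gene. When every probe set was tested at 4 h, 598 of 15588 unnamed ones were called (3.836%), against 6.651% of the probe sets with 1 gene.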

How the results depend on the processing

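Directions were kept under every alternative run for the named genes that were called. The count of 1616 stayed between 1536 and 1849 with probe sets averaged, dim genes removed, quantile normalization, arrays centred, an intensity trend, array weights, the Gapdh 3' to 5' difference as a covariate, or without the 2 arrays of high ratio. It became 2564 when all probe sets were tested separately, 823 with only the groups compared, 195 at a 2-fold minimum and 800 at an adjusted p under 0.01, and 1062 to 1715 as each array was left out. The difference of differences, 206 genes, gave 351 with array weights, 325 without the 2 arrays of high ratio, 78 at a 2-fold minimum, 63 at an adjusted p under 0.01, and 103 to 287 as each array was left out. The unstimulated comparison, 997 genes, whose alternatives were added after seeing the data, gave 1937 with array weights, 1723 without the 2 arrays of high ratio, 161 at a 2-fold minimum, 483 at an adjusted p under 0.01, and 589 to 704 as each array was left out. The 2 arrays of high ratio were stimulated deficient CD4 replicate 1 and unstimulated deficient CD8 replicate 2. Neither belongs to the unstimulated CD4 comparison, so leaving them out could alter its count only through the shared error. The cause of the other shifts was not tested. Of 235 called named genes other than Tsc1, 138 kept their call under all alternatives but the 2 stricter thresholds, 0 reversed, and 35 lost it without deficient replicate 1. A fit of only the groups compared removed 73 of the 235 calls, leaving out wild-type replicate 2 removed 56, and averaging probe sets 24. Tsc1 kept its call under every alternative. Of 184 further probe sets of 105 called named genes, limma called 69 in the same direction, 0 in the opposite one and did not call 115. Those not called are printed above for only part of these genes. Only 4 of the 69 exceeded the printed change by more than 1.5 times, both of Lamp2 given above, 1 of Egln3 (1.41 beside 0.68) and 1 of Ccnd2 (0.84 beside 0.54). The labels give no replicate numbers that groups share and do not say which arrays come from 1 mouse. The sample codes in the titles run in adjacent unstimulated and stimulated pairs, and deviations of the 6 pairs from their group means correlated at 0.0301 to 0.0769 over genes, each highest with its adjacent code. All these correlations were weak, and for wild-type replicate 3 the adjacent code gave 0.0301 and another code 0.0289. With these 6 pairs as a replicate block over the 12 CD4 arrays, an alternative chosen after seeing the data, the difference of differences gave 126 genes, 106 of them among the 206. The block lies within genotype and cannot bear on the 4 h comparison. The number of arrays, 3 a group, limits the precision.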
